A study of Drosophila melanogaster with 8 samples.

Results

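The genes described here encode the vacuolar proton ATPase (V-ATPase) of *Drosophila melanogaster*. All symbols in the count files that begin with Vha were taken, which were 33 of the 16727 symbols listed. This family was chosen with earlier results of these data known. The V-ATPase is a rotary pump that uses ATP to move protons into lysosomes, endosomes and secretory vesicles, and in neurons the proton gradient it makes drives the loading of transmitter into synaptic vesicles. Its V1 domain lies in the cytoplasm and splits ATP, its V0 domain spans the membrane and carries protons, and accessory proteins help the complex to assemble and to reach its membrane. The symbols covered 13 subunits of the complex, with 13 genes for V1 and 18 for V0, and 2 accessory genes. Many fly subunits have several paralogs, and some V-ATPase paralogs of the fly are known from the testis.

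RNA-seq was performed on heads of the Top3b26 mutant and of the w1118 control, with 4 libraries each. Top3b26 is a p-element remobilized allele of *Top3beta*, the gene of a topoisomerase that acts on DNA and RNA, and w1118 is the common white-eyed laboratory stock. All flies were adults of 1 to 2 weeks kept at 25 °C under a 12 h light and 12 h dark cycle, and the sex of the flies was not stated in the sources used here. The labels number the replicates 1 to 4 in both genotypes and do not say that they came from separate cultures. The methods of the study speak of independently prepared RNA, but in fewer sets than the libraries per genotype analysed here, so it is not known which libraries this covers. The p-values below measure the spread between these libraries, part of which may be technical. The comparison asks which genes differ in mRNA level between heads of the mutant and of the control.

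The files hold whole-number read counts per gene, with totals on genes of 4816757 to 6685891 in the libraries labelled Top3b26 and 3301976 to 7591510 in those labelled w1118. Levels are given as CPM, the counts scaled to the library's total on genes. Fold changes with their standard errors (SE) come from quasi-likelihood fits in edgeR with TMM factors, which correct for differences in RNA composition. Genes count as called where the fold change was at least 1.5 and the p, adjusted by Benjamini and Hochberg over all genes tested, at most 0.05. Several facts about the libraries stand before the results. The targeted gene *Top3beta* had 91.6, 79.9, 44.4 and 42.3 CPM in the libraries labelled Top3b26, against 34.04, 40.6, 27.8 and 23.8 CPM in those labelled w1118 (log2 fold change 0.90, adjusted p = 0.16, and 0.86 with adjusted p = 0.013 in the fit with the replicate number as a block), so its RNA was not lower under the mutant label, and directions below refer to libraries by their labels. Replicates 1 and 2 stood apart from replicates 3 and 4 in both genotypes. The summed level of 5 photoreceptor markers (*ninaE*, *norpA*, *trp*, *ninaC* and *Arr2*) was 2042 and 1908 CPM in replicates 1 and 2 labelled Top3b26, 20956 and 25687 CPM in replicates 3 and 4 labelled Top3b26, and 28344 to 38660 CPM in the libraries labelled w1118. Neuron markers (*elav*, *nSyb*, *Syt1*, *brp* and *Syn*) summed to 5720 to 8184 CPM in the libraries labelled Top3b26 and 4907 to 6389 CPM in those labelled w1118, with 0 of 5 called, and 0 of 5 glia, 0 of 5 muscle and 0 of 2 fat body markers tested were called over all libraries. Within the replicate sets some of the markers were called. All 5 photoreceptor markers were lower under the Top3b26 label and called in replicates 1 and 2. In replicates 3 and 4 *ninaC* and *Arr2* were lower and called, at log2 fold changes of -0.74 and -0.65. In replicates 1 and 2 the glia marker *repo* and the muscle marker *Act88F* were higher under the Top3b26 label, by log2 fold changes of 0.71 and 2.78. The fat body marker *Lsp2* was higher under the Top3b26 label in replicates 1 and 2 (1.77) and lower in replicates 3 and 4 (-3.82), *Rfabg* was lower in both sets (-0.60 and -1.47), and *Fbp1*, tested in replicates 3 and 4 only, was higher there (1.69). The summed fat body markers ran from 1364 to 2233 CPM in the libraries labelled Top3b26 and from 1579 to 9334 CPM in those labelled w1118. The part of these markers in the values below was not tested. In RNA from whole heads, fewer cells of a type and less RNA per cell cannot be told apart.

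The V-ATPase genes fell into 20 that were well expressed in heads, with a mean of at least 10 CPM over the 8 libraries, and 13 that were rarely counted. The well expressed genes held a member for every subunit, and 12 of them were V1 or accessory genes. *Vha16-1*, which encodes the c subunit of the proton-carrying ring, had the highest level. Its CPM was 1833, 1766, 2480 and 2627 in the libraries labelled Top3b26 and 1956, 1843, 2053 and 2062 in those labelled w1118, so that replicates 3 and 4 labelled Top3b26 were above the other 6 libraries. Nearest to the limit of 10 CPM were *VhaM9.7-c* at 15.5 CPM above it and *Vha100-4* at 3.22 CPM below it, and the gap between them was wide enough that a limit of 5 CPM also gave 20 genes.

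**Figure D1:**
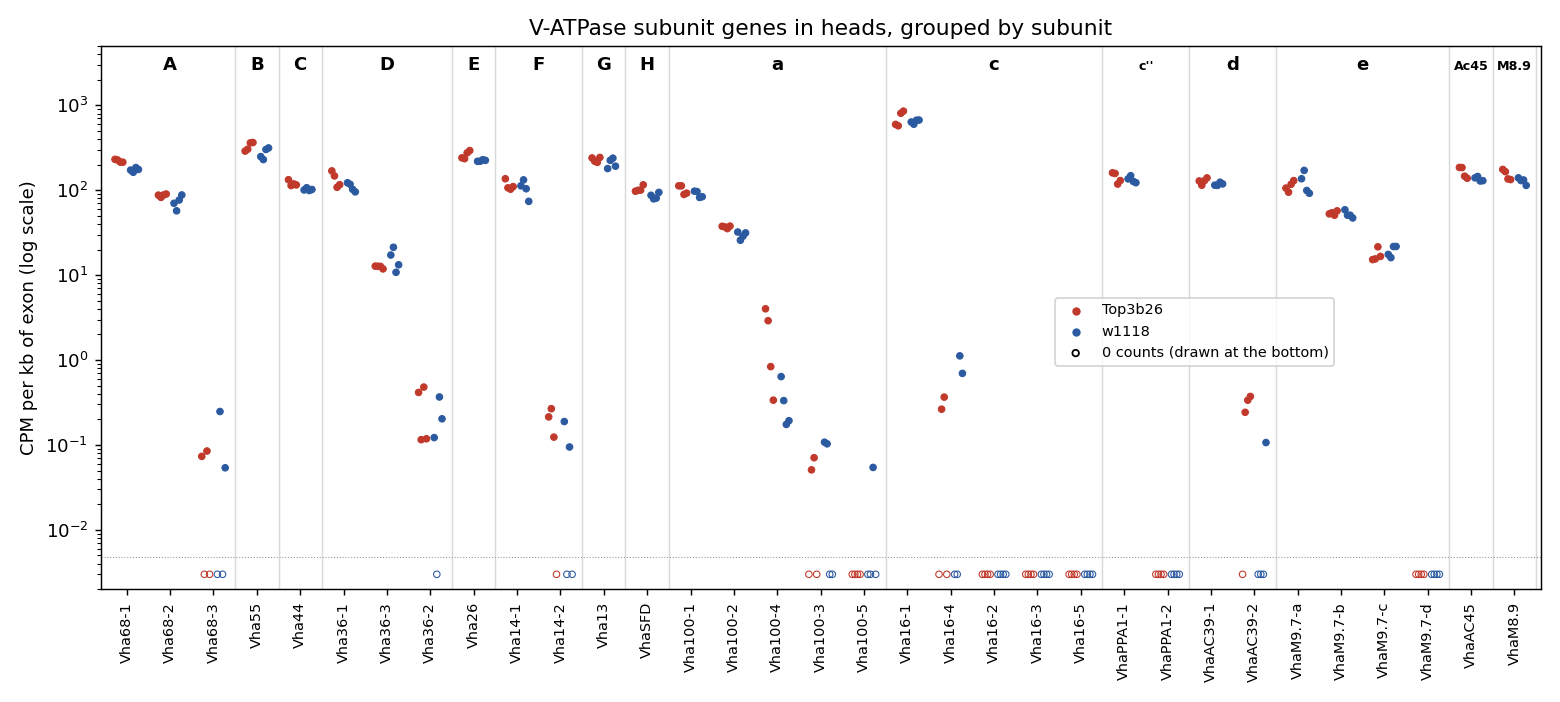
Level of each V-ATPase gene in CPM per kb of exon (log axis) by subunit, with each point a library and open symbols at the bottom for libraries with 0 counts. The 20 well expressed genes lie above 10 CPM per kb and the 13 rarely counted paralogs lie below 5, with *Vha100-4* the highest of these.

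To compare genes with each other, CPM was divided by the exon length of the gene in kb. *Vha16-1* stood at 707 ± 143 CPM per kb in the libraries labelled Top3b26 and 643 ± 33.3 CPM per kb in those labelled w1118 (SD, n = 4 each), and its lowest library, at 574 CPM per kb, was above every library of the next gene. That next gene was *Vha55*, the B subunit that binds nucleotide without splitting it, at 330 ± 38.8 CPM per kb in the libraries labelled Top3b26 and 274 ± 41.0 CPM per kb in those labelled w1118 (SD, n = 4 each). *Vha55*, *Vha26* (subunit E of the outer stalks), *Vha13* (subunit G of the same stalks) and *Vha68-1* (the ATP-splitting subunit A) followed each other at means of 302, 242, 219 and 198 CPM per kb over the 8 libraries, and each overlapped the next in this order. Below them, *VhaAC45*, *VhaM8.9*, *VhaPPA1-1*, *VhaAC39-1*, *Vha36-1*, *VhaM9.7-a*, *Vha44*, *Vha14-1*, *Vha100-1*, *VhaSFD* and *Vha68-2* formed a run from 150 to 80.0 CPM per kb in which every gene overlapped its neighbour. *VhaM9.7-b*, at 52.8 CPM per kb, overlapped *Vha68-2* above it. Clear steps lay below *VhaM9.7-b*, before *Vha100-2* at 33.2 CPM per kb, and below *Vha100-2*, before *VhaM9.7-c* at 18.3 and *Vha36-3* at 14.1 CPM per kb, a last pair that overlapped. The levels per kb depend on which transcript is used, since with the shortest annotated transcript of each gene *Vha44* had 313 CPM per kb in place of 111, and *Vha16-1* still led at 742.

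In the catalytic V1 domain, *Vha68-1* had 618, 607, 574 and 573 CPM in the libraries labelled Top3b26, against 461, 435, 495 and 470 CPM in those labelled w1118. Its groups did not overlap on CPM or on TMM-scaled totals, where 7.64% and 3.67% of all genes tested were above in the same way. Its paralog *Vha68-2*, which lies 22162 bases away on the opposite strand of chromosome 2L, had 241, 227, 242 and 249 CPM in the libraries labelled Top3b26 and 194, 158, 212 and 243 CPM in those labelled w1118, and the groups overlapped. The fold change of *Vha68-1* on the log2 scale was 0.22 (SE 0.12, edgeR adjusted p = 0.50) over all libraries, 0.30 (SE 0.13) in replicates 1 and 2 and 0.14 (SE 0.09) in replicates 3 and 4. *Vha55* had 805, 847, 1006 and 1015 CPM in the libraries labelled Top3b26 and 693, 639, 841 and 877 CPM in those labelled w1118. For this subunit B gene replicates 3 and 4 were above replicates 1 and 2 in both genotypes.

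The stalks and the regulatory subunits of V1 were each led by a single gene. *Vha26* had 704, 688, 806 and 857 CPM in the libraries labelled Top3b26 and 641, 642, 668 and 658 CPM in those labelled w1118. *Vha44*, the C subunit that ties the outer stalks to V0, had 535, 457, 478 and 464 CPM in the libraries labelled Top3b26 and 405, 430, 399 and 410 CPM in those labelled w1118. In both genes the groups did not overlap on this scale, where 7.64% of all genes tested were above in the same way. On TMM-scaled totals the groups of both genes overlapped. *VhaSFD*, the H subunit that regulates the pump, had 275, 282, 284 and 327 CPM in the libraries labelled Top3b26, against 247, 224, 228 and 267 CPM in those labelled w1118. *Vha13* had 226, 207, 201 and 229 CPM in the libraries labelled Top3b26, and 170, 212, 225 and 181 CPM in those labelled w1118, with replicates 1 and 4 labelled Top3b26 just above the highest library labelled w1118. In the central stalk, *Vha36-1* (subunit D) had 180, 157, 115 and 124 CPM in the libraries labelled Top3b26 and 130, 125, 109 and 102 CPM in those labelled w1118, and it was higher under the Top3b26 label in all 4 same-numbered pairs on this scale and in 3 of 4 on TMM-scaled totals. The replicate numbers are not known to pair the libraries, and the share of all genes higher in all 4 pairs is not given here. *Vha14-1* (subunit F) had 89.9, 70.3, 67.7 and 72.7 CPM in the libraries labelled Top3b26 and 74.3, 87.2, 68.6 and 48.7 CPM in those labelled w1118, with no separation.

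In V0, the large a subunit that holds the proton channel was led by *Vha100-1*, the paralog known from fly neurons and synaptic vesicles. It had 370, 370, 293 and 304 CPM in the libraries labelled Top3b26 and 320, 317, 270 and 276 CPM in those labelled w1118, with replicates 1 and 2 above replicates 3 and 4 in both genotypes. *VhaPPA1-1*, the c'' subunit of the ring, had 217, 213, 160 and 176 CPM in the libraries labelled Top3b26 and 184, 200, 172 and 166 CPM in those labelled w1118. *VhaAC39-1*, subunit d at the foot of the central stalk, had 230, 205, 232 and 250 CPM in the libraries labelled Top3b26 and 206, 204, 223 and 213 CPM in those labelled w1118. Neither gene separated the genotypes. Of the accessory genes, *VhaAC45* had 373, 372, 295 and 279 CPM in the libraries labelled Top3b26 and 282, 292, 259 and 261 CPM in those labelled w1118. *VhaM8.9*, whose present symbol is *ATP6AP2*, had 258, 243, 199 and 196 CPM in the libraries labelled Top3b26 and 205, 191, 194 and 167 CPM in those labelled w1118, and both accessory genes were higher under the Top3b26 label in all 4 same-numbered pairs on this scale and in 3 of 4 on TMM-scaled totals. The annotation lists a further gene of this kind under the present symbol *VhaAC45RP*, which the files call *CG31030* and which the rule on symbols therefore left out. It had 253, 229, 172 and 171 CPM in the libraries labelled Top3b26 and 191, 222, 159 and 140 CPM in those labelled w1118 (log2 fold change 0.09, SE 0.14, edgeR adjusted p = 0.85).

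Across all 8 libraries, 0 of the 21 V-ATPase genes that passed the filter on low counts were called, where 0.914% of the 9633 genes tested were. At an unadjusted p of at most 0.05 there were 2, *Vha100-4* and *Vha36-3*, against 12.4% of all genes, and the numbers called were 1 with DESeq2, where 2.41% of all genes were, and 0 with limma, where 0.893% were. The 20 well expressed genes had log2 fold changes from -0.43 to 0.22 with a median of 0.08, and 17 of the 20 lay within 0.25 of 0, as did 68.0% of the 7205 genes at or above the same 10 CPM. The median absolute log2 fold change was 0.11 over these 20 genes and 0.17 over those 7205. *Vha36-3*, a minor D subunit paralog, gave the lowest value, and *Vha68-1* gave the highest.

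The scaling decided how many of these genes looked higher. On CPM, which uses library totals, all 4 libraries labelled Top3b26 were above all 4 labelled w1118 for 5 of the 21 genes, *Vha100-2*, *Vha26*, *Vha44*, *Vha68-1* and *VhaSFD*, where 7.64% of all genes tested did so, and 0 of the 21 were below, where 2.58% of all genes were. On CPM with TMM-scaled totals only *Vha68-1* stayed above among the 21, where 3.67% of all genes did, and 0 were below, where 4.66% were. Without factors the median log2 fold change of all genes moved to 0.12 and that of the 21 genes to 0.23, while with TMM factors these medians were -0.01 and 0.10, so the distance between the medians was alike on both scales. With TMM factors 14 of the 21 genes had a positive log2 fold change and 7 a negative one, where 48.9% of all genes tested were positive. With library totals alone 18 were positive and 3 negative, where 66.6% of all genes tested were positive. Over all genes, those called were 24 higher and 64 lower with TMM factors and 34 higher and 46 lower with library totals alone. The sum of all V-ATPase genes was 7259, 7002, 7730 and 8056 CPM in the libraries labelled Top3b26 and 6479, 6309, 6673 and 6660 CPM in those labelled w1118, and on TMM-scaled totals the sums overlapped, at 6388 to 8181 CPM in the libraries labelled Top3b26 and 6237 to 7486 CPM in those labelled w1118.

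**Figure D2:**
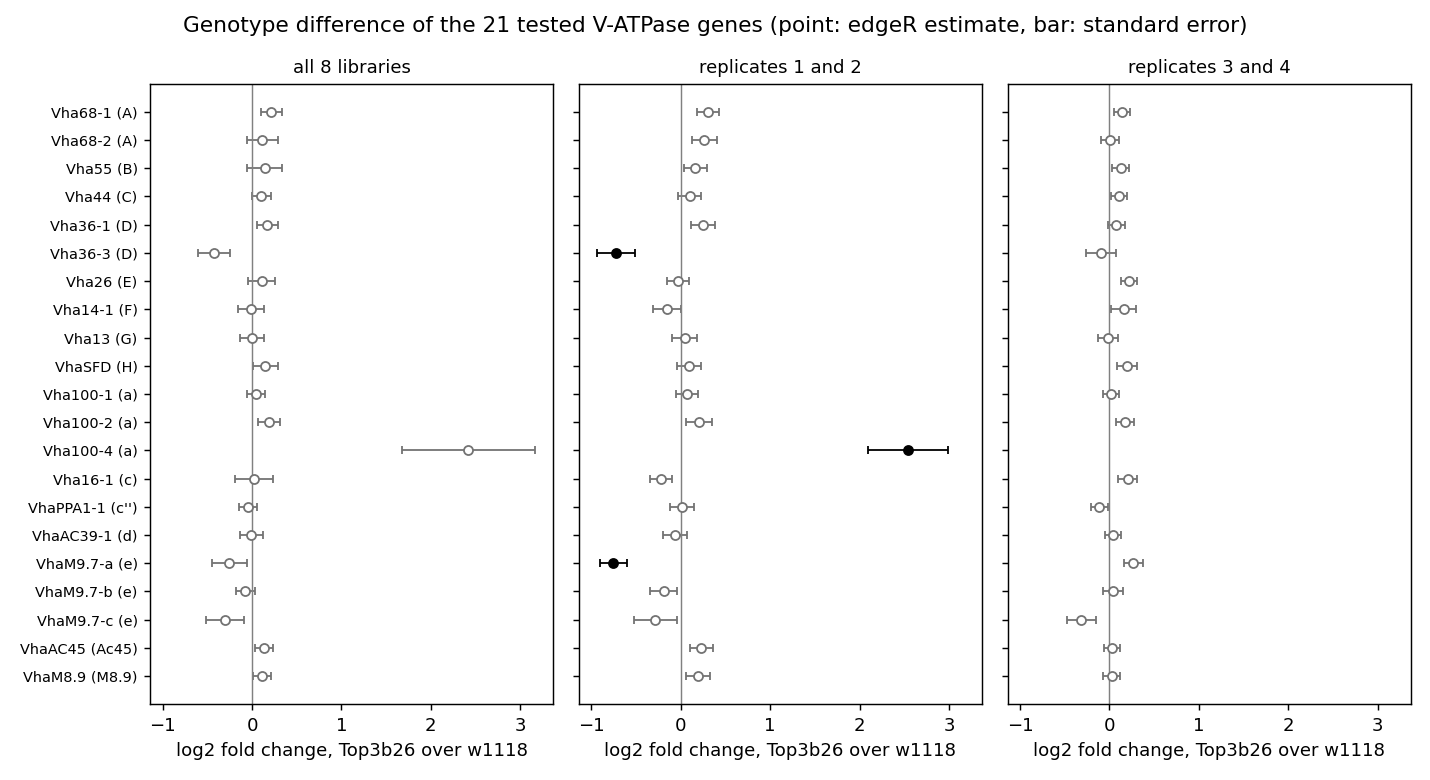
Log2 fold change, libraries labelled Top3b26 over those labelled w1118, of the 21 tested V-ATPase genes (points, with standard errors as bars) in all 8 libraries, in replicates 1 and 2 and in replicates 3 and 4. Filled points are genes called in that fit: none over all libraries, *Vha100-4*, *Vha36-3* and *VhaM9.7-a* in replicates 1 and 2, and none of the 20 tested in replicates 3 and 4.

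*Vha100-4* showed the widest difference of all V-ATPase genes. It encodes an a subunit and lies on chromosome 3R (positions 18386841 to 18389805 of the minus strand in dm6, 4 exons), 517 bases from *Vha100-2* on the same strand. Its counts were 61, 53, 11 and 6 in the libraries labelled Top3b26, against 11, 3, 3 and 4 in those labelled w1118, which is 11.0, 7.93, 2.28 and 0.920 CPM against 1.74, 0.909, 0.476 and 0.527 CPM. Replicates 1 and 2 labelled Top3b26 were far above the rest, and the groups overlapped because replicate 4 labelled Top3b26 was below replicate 1 labelled w1118. On the log2 scale the fold change was 2.42 (SE 0.74), which edgeR did not call (adjusted p = 0.23), and it was higher under the Top3b26 label in all 4 same-numbered pairs. The fit with the replicate number as a block called it, at a log2 fold change of 2.25 (SE 0.38, edgeR adjusted p = 0.015), and it was the 1 V-ATPase gene called in that fit, where 3.82% of all genes were. A fit with a term for the replicate sets gave 2.22 (edgeR adjusted p = 0.0051). DESeq2 gave 2.44 (adjusted p = 0.039), and limma with voom gave 2.03 (adjusted p = 0.43).

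This difference rested on few libraries and few reads. The gene passed the filter on low counts with 3 libraries labelled Top3b26 and 1 labelled w1118 at or above 1.59 CPM, so it entered the test largely through the group in which it was high. When replicates 1 and 2 labelled Top3b26, those low in photoreceptor markers, were left out, the log2 fold change was 0.74 (SE 0.66, edgeR adjusted p = 0.72). That fit kept all 4 libraries labelled w1118, so it mixed genotype with replicate set. With genotype held, the gene was lower in replicates 3 and 4, at a log2 difference of -2.13 (SE 0.37). The fit therefore cannot tell whether the genotype difference depended on the libraries left out. An exact two-sided permutation test on log2(CPM + 1) over the 8 libraries gave p = 0.057, where the smallest p it can give is 0.029. The neighbour *Vha100-2* had 121, 119, 114 and 122 CPM in the libraries labelled Top3b26 and 104, 83.0, 92.6 and 101 CPM in those labelled w1118, with a log2 fold change of 0.19 (SE 0.12, edgeR adjusted p = 0.56). The gene *cona* overlaps exons of *Vha100-4* on the opposite strand and had 0 to 2 counts per library. Markers of gut and Malpighian tubule were scarce in the same libraries, with *Uro* at 0 in all 8 and the sum of 7 markers at 18.1 to 21.2 CPM in the libraries labelled Top3b26 and 31.9 to 43.9 CPM in those labelled w1118. The digestive enzyme gene *Amy-p*, the 1 of these called, was lower under the Top3b26 label (log2 fold change -1.77, edgeR adjusted p = 0.028). It had 4.79 to 12.0 CPM in the libraries labelled Top3b26 and 21.9 to 31.2 CPM in those labelled w1118, and the difference in the sum lay mainly in this gene. The marker *Mal-A1* had 7.36 to 12.7 CPM in the libraries labelled Top3b26 and 6.67 to 9.09 CPM in those labelled w1118 (log2 fold change -0.009). The part of such tissue in the level of *Vha100-4* was not tested.

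**Figure D3:**
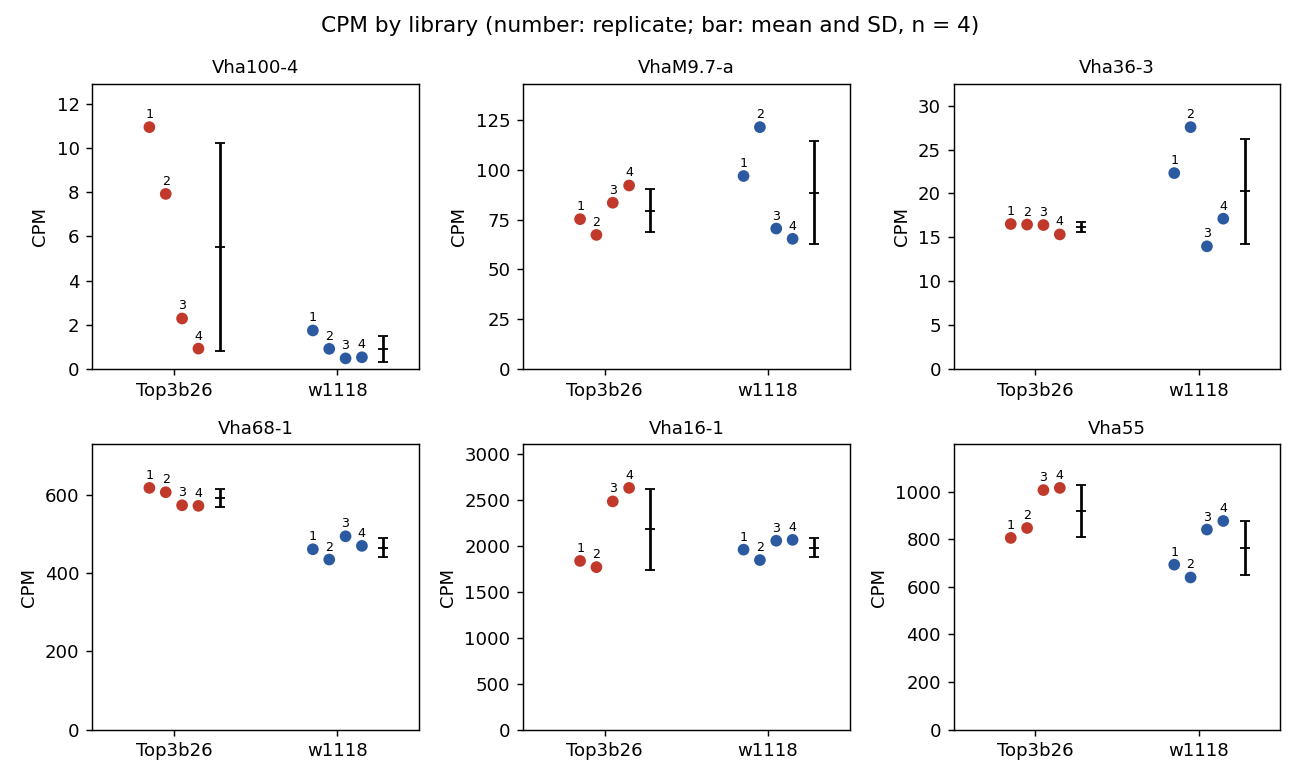
CPM of 6 V-ATPase genes in each library, with the replicate number above each point and the mean and SD (n = 4) as bars. *Vha100-4* is high in replicates 1 and 2 labelled Top3b26 (11.0 and 7.93 CPM), and *VhaM9.7-a* and *Vha36-3* are high in replicates 1 and 2 labelled w1118. *Vha68-1* is higher in all 4 libraries labelled Top3b26, as are 7.64% of all genes tested.

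Within replicates 1 and 2 alone, 3 of the 21 genes were called, where 10.5% of the 9686 genes tested were. *Vha100-4* was higher under the Top3b26 label, with a log2 fold change of 2.54 (SE 0.45, edgeR adjusted p = 0.00030). Its counts there were 61 and 53 under the Top3b26 label and 11 and 3 under the w1118 label. Here too it entered the test largely through the group in which it was high. Both other genes called were lower. *VhaM9.7-a*, on chromosome 3L (positions 4262705 to 4263464 of the plus strand in dm6, 2 exons), encodes the small membrane subunit e. Its CPM was 75.2, 67.3, 83.5 and 92.1 in the libraries labelled Top3b26 and 96.9, 121, 70.5 and 65.3 in those labelled w1118. The order of the genotypes thus turned round between the replicate sets, with a log2 fold change of -0.75 (SE 0.15, edgeR adjusted p = 0.0011) in replicates 1 and 2 and 0.27 (SE 0.11, edgeR adjusted p = 0.14) in replicates 3 and 4. The test of this difference itself, the interaction of genotype and replicate set, gave 0.99 (SE 0.18, edgeR adjusted p = 0.0019), and *VhaM9.7-a* was the 1 V-ATPase gene of 21 called by it, where 7.31% of all genes were. It kept that call in each of the fits that left out a library. Over all libraries its log2 fold change was -0.25 (SE 0.19, edgeR adjusted p = 0.64).

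*Vha36-3*, on chromosome X (positions 2579091 to 2580560 of the minus strand in dm6, 4 exons), encodes a D subunit paralog whose level lay below that of *Vha36-1* and above that of the rarely counted *Vha36-2*. It had 16.5, 16.5, 16.4 and 15.3 CPM in the libraries labelled Top3b26 and 22.3, 27.6, 14.0 and 17.1 CPM in those labelled w1118. The libraries labelled Top3b26 were nearly level, and the difference came from replicates 1 and 2 labelled w1118. The log2 fold change was -0.43 over all libraries (SE 0.18, edgeR adjusted p = 0.38), -0.72 in replicates 1 and 2 (SE 0.21, edgeR adjusted p = 0.022) and -0.09 in replicates 3 and 4 (SE 0.17, edgeR adjusted p = 0.80). The interaction was 0.60 (SE 0.26, edgeR adjusted p = 0.22), so a difference between the replicate sets was not shown for this gene. In replicates 1 and 2, where *VhaM9.7-a* and *Vha36-3* were lower under the Top3b26 label, all 5 photoreceptor markers were lower and called, with a median log2 fold change of -3.90, and the part of this in the values of both genes was not tested.

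Within replicates 3 and 4 alone, 0 of the 20 V-ATPase genes tested were called, where 7.48% of the 9656 genes tested were. Their log2 fold changes ran from -0.31 (*VhaM9.7-c*) to 0.27 (*VhaM9.7-a*), and 16 of the 20 were positive, where 51.1% of all genes tested were. *Vha100-4* was not tested there because its counts, 11 and 6 under the Top3b26 label and 3 and 4 under the w1118 label, were below the filter. The log2 fold change of *Vha16-1* had opposite signs in the replicate sets and was called in neither, at 0.20 (SE 0.11) in replicates 3 and 4 and -0.22 (SE 0.12) in replicates 1 and 2, and the interaction was 0.40 (edgeR adjusted p = 0.13).

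The replicate sets themselves were also compared, with genotype held. Replicates 3 and 4 over replicates 1 and 2 gave 1 call among the 21 genes, *Vha100-4* at a log2 difference of -2.13 (SE 0.37, edgeR adjusted p = 0.0013), where 18.6% of all genes were called. The abundant genes named next differed between the sets at an adjusted p under the threshold but by less than 1.5 times. How many of the 21 genes, or of all genes, did so without the fold minimum is not given here. The values are therefore not shown to be particular to these genes. *Vha55* was higher in replicates 3 and 4 by 0.50 on the log2 scale (adjusted p = 0.0015), *Vha16-1* by 0.48 (adjusted p = 0.0078) and *Vha26* by 0.32 (adjusted p = 0.017). The genotype difference over all libraries was 0.14, 0.02 and 0.11 for *Vha55*, *Vha16-1* and *Vha26*. These genes were named for their difference between the sets, so its larger size follows from that choice and is not a result.

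The balance of V1 against V0 was examined by summing the genes of each domain. The V1 sum was 3693, 3560, 3791 and 3926 CPM in the libraries labelled Top3b26 and 3037, 2981, 3259 and 3273 CPM in those labelled w1118. The V0 sum, most of which was *Vha16-1*, was 2935, 2828, 3445 and 3655 CPM in the libraries labelled Top3b26 and 2955, 2845, 2962 and 2959 CPM in those labelled w1118. On CPM the V1 sums did not overlap between the genotypes and the V0 sums did. On TMM-scaled totals the V1 sums overlapped too, at 3247 to 3987 CPM in the libraries labelled Top3b26 and 2947 to 3679 CPM in those labelled w1118. The ratio of V1 to V0 was 1.26, 1.26, 1.10 and 1.07 in the libraries labelled Top3b26 and 1.03, 1.05, 1.10 and 1.11 in those labelled w1118. The 2 high ratios belonged to replicates 1 and 2 labelled Top3b26, the libraries with the lowest photoreceptor markers, and the relation between these values was not tested.

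**Figure D4:**
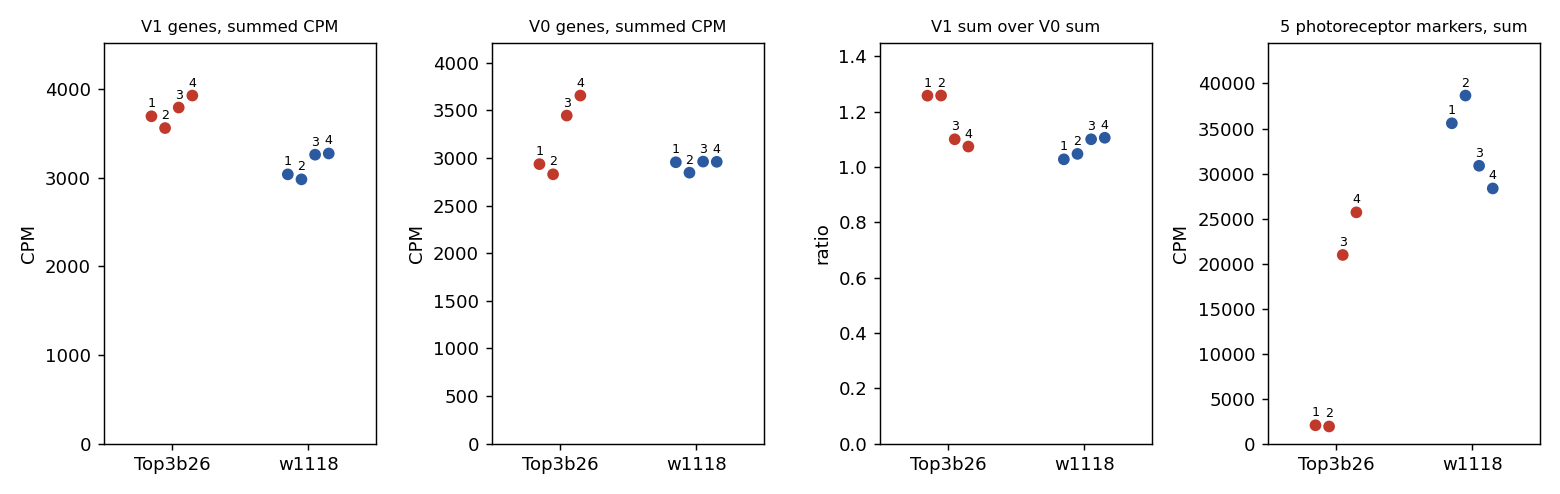
Summed CPM of the V1 genes, of the V0 genes, the ratio of these sums, and the summed CPM of 5 photoreceptor markers in each library (points, with the replicate number). The ratio is 1.26 in replicates 1 and 2 labelled Top3b26 and 1.03 to 1.11 in the other libraries.

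Where a subunit had several paralogs, the share of each in the CPM per kb of that subunit was compared between the genotypes. *Vha68-1* made up 71.8 ± 1.40% of subunit A in the libraries labelled Top3b26 and 70.6 ± 2.99% in those labelled w1118 (SD, n = 4 each), and *Vha68-2* made up nearly all of the rest. *Vha36-1* made up 91.1 ± 1.58% of subunit D in the libraries labelled Top3b26 and 87.5 ± 2.25% in those labelled w1118. For subunit a, the share of *Vha100-1* was 72.2 ± 1.48% in the libraries labelled Top3b26 and 75.0 ± 2.59% in those labelled w1118, and *Vha100-4* supplied 2.60, 1.91, 0.668 and 0.258% in the libraries labelled Top3b26 and 0.490, 0.272, 0.157 and 0.167% in those labelled w1118. Subunit e was shared by *VhaM9.7-a*, *VhaM9.7-b* and *VhaM9.7-c*, with *VhaM9.7-a* at 61.1 ± 2.58% in the libraries labelled Top3b26 and 62.7 ± 6.85% in those labelled w1118. *VhaM9.7-b* had 61.7 to 69.4 CPM in the libraries labelled Top3b26 and 57.3 to 71.6 CPM in those labelled w1118, and *VhaM9.7-c* had 12.9 to 18.3 CPM in the libraries labelled Top3b26 and 13.6 to 18.4 CPM in those labelled w1118. All of these shares overlapped between the genotypes.

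**Figure D5:**
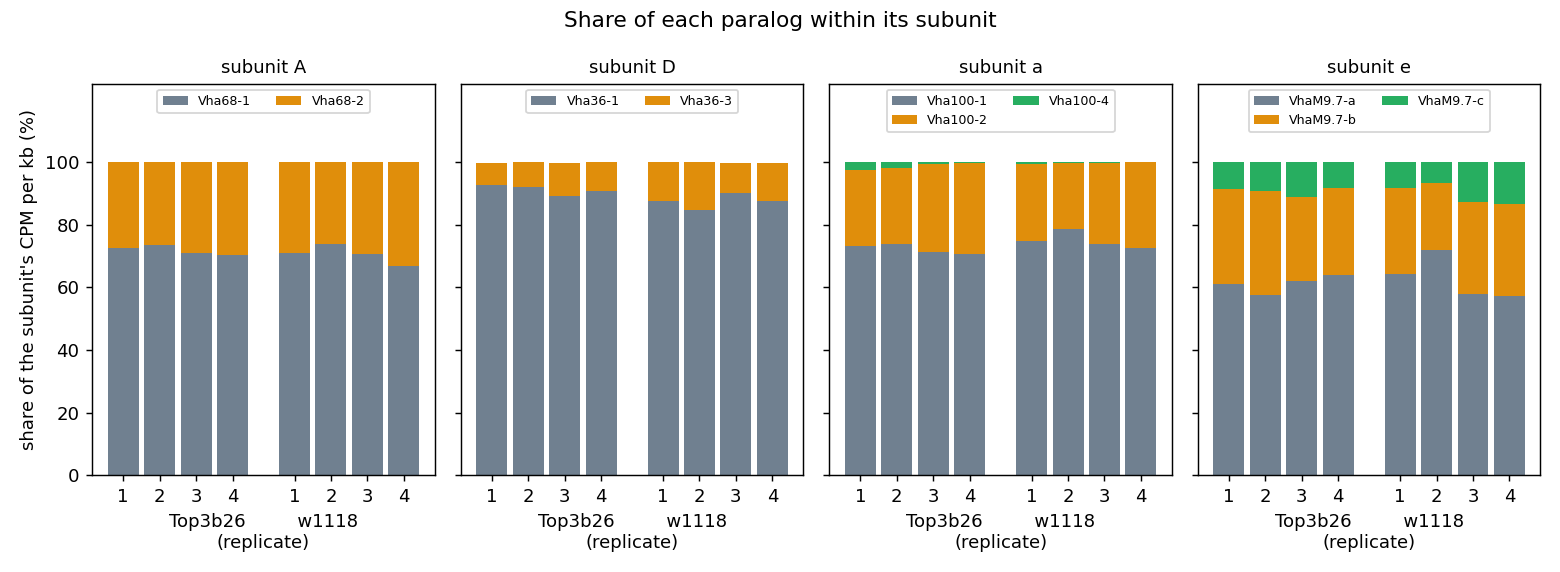
Share of the well counted paralogs in the CPM per kb of subunits A, D, a and e in each library (stacked bars, rarely counted paralogs not drawn except *Vha100-4*). *Vha68-1* and *Vha100-1* hold 66.6 to 78.6% of their subunits in every library, and *Vha100-4* is visible in replicates 1 and 2 labelled Top3b26.

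The other 12 genes had too few reads for the fit across genes. Of these, 5 had no read in any library, namely *Vha16-2*, *Vha16-3*, *Vha16-5*, *VhaM9.7-d* and *VhaPPA1-2*, which allows a level of up to 0.0637 CPM (3 counts over all libraries, counting error only). The other 7 had between 0 and 4 counts per library. *Vha36-2*, a D subunit paralog, was read most often, with 3, 1, 3 and 1 counts in the libraries labelled Top3b26 and 1, 0, 3 and 2 in those labelled w1118. *VhaAC39-2*, a d subunit paralog, had 0, 2, 2 and 3 counts in the libraries labelled Top3b26 and 0, 0, 0 and 1 in those labelled w1118. *Vha16-4*, of the ring subunit c, had 0, 1, 1 and 0 counts in the libraries labelled Top3b26 and 0, 0, 4 and 3 in those labelled w1118. Over all 8 libraries *Vha14-2*, a subunit F paralog, had 9 counts, *Vha68-3* and *Vha100-3*, of subunits A and a, had 5 each, and *Vha100-5*, also of subunit a, had 1. Exact two-sided permutation tests on log2(CPM + 1) gave p from 0.14 to 1 for the 7 genes, and differences between genotypes were not detectable at this depth. Single-exon genes were 6 of the 13 rarely counted paralogs and 3 of the 20 well expressed genes.

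Rarely counted paralogs lay beside well expressed ones. *Vha68-3* lies 178 bases from *Vha68-2*, and their mean levels over the 8 libraries were 0.141 and 221 CPM. *VhaPPA1-2*, with no read, lies 2052 bases from *VhaPPA1-1*, at 186 CPM, and *Vha16-2* and *Vha16-3* lie 985 bases apart with no read in either. The counts do not state whether strand was used, and the exons of *Vha100-1*, *Vha44*, *Vha100-5*, *Vha16-2* and *VhaPPA1-2* overlap a gene on the other strand. The partner of *Vha44*, *Hmgs*, had 46.8 to 63.7 CPM over the libraries, beside 399 to 535 CPM for *Vha44*, and that of *Vha100-1*, listed as *CG14512*, had 1.94 to 4.54 CPM. Of 6 testis markers, *dj*, *janB*, *Mst84Da*, *Mst98Ca* and *can* had 0 to 6 counts per library, while *bol* was at 708 to 975 CPM.

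Other genes of the pathway gave no call over all libraries. *Rbcn-3A* and *Rbcn-3B*, which help to assemble V1 on V0, and *CG5969*, listed with them as an assembly factor, gave 0 calls of 3, with log2 fold changes of 0.29, 0.17 and -0.26. *Mitf*, the fly member of the transcription factor family known to drive V-ATPase and lysosomal genes, had 245, 198, 227 and 208 CPM in the libraries labelled Top3b26 and 132, 107, 146 and 142 CPM in those labelled w1118. The groups did not overlap on this scale, where 7.64% of all genes tested were above in the same way. The log2 fold change of *Mitf* was 0.60 (SE 0.15, edgeR adjusted p = 0.15). The fit with the replicate number as a block called it at 0.61 (edgeR adjusted p = 0.016), where 3.82% of all genes were called. Together with 7 lysosomal genes it gave 0 calls of 8 over all libraries, with 3 of the 8 log2 fold changes positive. In replicates 1 and 2, where 10.5% of all genes were called, 3 of the 8 were. *Mitf* was higher under the Top3b26 label (log2 fold change 0.73, edgeR adjusted p = 0.0014), and in replicates 3 and 4 its value was 0.49 (edgeR adjusted p = 0.0040), short of the fold of 1.5. In replicates 1 and 2 *cathD*, a lysosomal protease, and *Npc2a*, which carries cholesterol in the lysosome, were lower under the Top3b26 label and were called. Their log2 fold changes were -1.12 and -1.05 (edgeR adjusted p = 9.7e-07 and 2.4e-05). In replicates 3 and 4 *cathD* was higher under the Top3b26 label at 0.47 (edgeR adjusted p = 0.0081), also short of the fold of 1.5. *Npc2a* was at -0.05 there (edgeR adjusted p = 0.86).

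The vesicular transporters that use the proton gradient of the pump, *VGlut*, *VAChT*, *VGAT*, *Vmat* and *prt*, had log2 fold changes of 0.13, 0.13, 0.30, 0.11 and 0.27, all positive with a median of 0.13, and 0 of 5 were called. The 8 genes of the mitochondrial ATP synthase, the related rotary enzyme that works in the other direction, were all negative with a median of -0.16, and 0 were called. In replicates 1 and 2 these ATP synthase genes were 3 positive and 5 negative with a median of -0.0018, and in replicates 3 and 4 all 8 were negative with a median of -0.20, with 0 called in either set. The transporter genes had medians of 0.25 in replicates 1 and 2, where all 5 were positive, and 0.12 in replicates 3 and 4, where 4 of 5 were. The medians over all libraries stood beside -0.01 over all genes tested and 0.10 over the 21 V-ATPase genes, and the block called 0 of the transporter and 0 of the ATP synthase genes.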

How the data were processed

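RNA-seq of heads was analysed in 8 libraries, 4 labelled Top3b26 and 4 labelled w1118. The authors mapped reads to dm6 with TopHat (TopHat2 2.1.1 and SAMtools 1.8 in the submitters' processing notes) and deposited, for each library, whole-number counts of reads for each gene symbol with no normalization. The counting tool and its use of strand are not given in the sources used here. In the deposited file of w1118 replicate 2 the header says CPM, but the values are whole numbers that sum to 3301976, and they were taken as counts. Multiply aligned reads entered no gene, which can lower near-identical paralogs. They were 23.7 to 30.4% of the reads listed in replicates 1 and 2 and 16.6 to 20.1% in replicates 3 and 4. The part of this in the differences between the replicate sets was not tested. No 2 libraries of a genotype agreed within sampling noise. The chi-square per degree of freedom was 5.30 to 7.51 within a replicate set and 47.1 to 84.5 between the sets.

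The members and lists were chosen with earlier results of these data known. Symbols were matched to the Ensembl annotation of dm6 (12512 directly, 3996 by an older symbol, 219 not matched), and exon length is the union of exons. Counts were tested with edgeR 4.0.16 in R 4.3.3 (filterByExpr with a minimum count of 10, TMM, glmQLFit, glmQLFTest), with DESeq2 1.42.0 and limma 3.58.1 as alternatives. Exact permutation tests were run in Python 3.11.15 (scipy 1.17.1) for genes under the filter and for *Vha100-4*, which passed it. The test of *Vha100-4* was not planned. The steps were tested on simulated data. A depth of 3 counts is 0.395 to 0.909 CPM per library. Values in every library are given for the leading gene of each subunit, for genes called over all libraries or within a replicate set, and for those at an unadjusted p of at most 0.05. Other genes with values in each library (*Vha68-2*, *Vha100-2*, *Vha36-2*, *VhaAC39-2*, *Vha16-4*, *CG31030* and *Mitf*) were chosen after their values were seen. Same-numbered libraries of the genotypes deviated together (correlations of their deviations 0.586, 0.437, 0.512 and 0.647), and the replicate number was used as a block. Different-numbered libraries within a replicate set were as alike (0.527 to 0.622), so the check shows the sets and does not single out the numbers. Since no pairing is named in the study's methods, the block was an alternative, printed where it changes a call. Leaving out replicates 1 and 2 labelled Top3b26, the comparison of the replicate sets and the transcript used for the length were added after the data were seen. Sequences were not analysed here.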

Additional observations from a re-analysis of the deposited data

Results flagged for a closer look

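The genotype effect of *VhaM9.7-a*, subunit e, differed between the replicate sets. The effect in replicates 3 and 4 minus that in replicates 1 and 2 was 0.99 on the log2 scale, tested as an interaction in edgeR (adjusted p = 0.0019).

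Among 42 groups of 4 libraries (21 genes in each genotype), 2 held a library far from the others, where chance gives about 1 in 20. *Vha36-3* had 15.3 CPM in replicate 4 labelled Top3b26 against 16.4 to 16.5 CPM in the other libraries of that label, a gap of about 1 CPM in a gene with 79 to 110 counts per library. *VhaSFD* had 327 CPM in replicate 4 labelled Top3b26 against 275 to 284 CPM in the others.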

How the results depend on the processing

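The count of called V-ATPase genes was 0 over all libraries and 1 with the replicate block, 1 with a replicate set term, 1 with DESeq2 (*Vha100-4* in each) and 3 in replicates 1 and 2 alone. It was 0 with median-of-ratios factors, upper-quartile factors, library totals alone, no filter, no fold minimum, limma, replicates 3 and 4 alone, without replicates 1 and 2 labelled Top3b26, and leaving out each library. The replicate block changed no other call among the V-ATPase genes. Over all genes tested, 88 were called, 368 with the block, 539 with the set term, 232 with DESeq2, 86 with limma and 42 to 61 leaving out a library. Leaving out a library moved *Vha100-4* between 1.90 (without replicate 1 labelled Top3b26) and 2.96 (without replicate 1 labelled w1118), with adjusted p from 0.10 to 0.47. Limits of 5 or 20 CPM gave 20 or 18 well expressed genes.

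Of 398 values of single genes 44 changed sign, in 9 of the 21 genes, among them *VhaM9.7-a*, called in replicates 1 and 2. With library totals alone *Vha14-1* was 0.11, *VhaAC39-1* 0.12, *VhaM9.7-b* 0.049 and *VhaPPA1-1* 0.085. *Vha14-1* was 0.0038 with DESeq2, 0.013 with limma, 0.0011 with median-of-ratios factors, 0.0063 with no filter, 0.0057 with the replicate block and 0.00070 with the set term. *VhaAC39-1* was 0.0030 with DESeq2, 0.0040 with median-of-ratios factors, 0.0067 with no filter and 0.0057 with upper-quartile factors. *Vha16-1* was -0.0012 with limma and -0.010 with the block and with the set term. In replicates 1 and 2, *Vha16-1* was -0.22, *Vha26* -0.028 and *VhaPPA1-1* 0.017. In replicates 3 and 4, *Vha13* was -0.018, *Vha14-1* 0.16, *VhaAC39-1* 0.041, *VhaM9.7-a* 0.27 and *VhaM9.7-b* 0.037. Without replicates 1 and 2 labelled Top3b26, in a fit that mixed genotype with replicate set, *Vha100-1* was -0.015, *VhaAC39-1* 0.16 and *VhaM9.7-b* 0.026. Leaving out a library gave -0.084 to 0.097 for *Vha13*, -0.12 to 0.10 for *Vha14-1*, -0.11 to 0.14 for *Vha16-1*, -0.083 to 0.075 for *VhaAC39-1* and -0.072 to 0.017 for *VhaPPA1-1*. The cause of these changes was not tested. Depth limits the rarely counted genes, where leaving out a library leaves 4 against 3, which cannot give an exact p of 0.05 or less.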
